A study of Mus musculus with 80 samples.

Results

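The transcription factors through which the circadian clock acts on other genes were followed across the brain of virgin and primiparous females. The set was given by name and holds 7 genes, Dbp, Tef, Hlf, Nfil3, Ciart, Bhlhe40 and Bhlhe41, of the 27179 genes of the count table. The choice was a list of names, made with earlier results of these data known. All 7 passed the filter of at least 5 CPM (counts-per-million of counted reads) in at least 8 libraries, which left 13016 genes to test, and Ciart, the lowest of them, reached that level in 69 of the 77 libraries.

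The samples were C57BL/6 females (C57BL/6J in the study's methods), 8 virgin and 8 primiparous (a single litter), each giving a library from the hypothalamus, hippocampus, neocortex, cerebellum and amygdala. Primiparous females had been paired with a male at 8 weeks of age for 2 weeks, and the labels place the harvest 3 weeks after their pups were weaned, while the study's methods give a longer interval. The virgin females were of the same age, shared a light-dark cycle and a barrier room with the others and were never housed with a male, so mating, male contact, caging, pregnancy and pup care cannot be told apart. Every brain was taken on a single day within a short window, for which no clock time is given, so each animal gives a single phase of the day. The hypothalamus was used whole and the other regions from the left side only. Of 80 labelled libraries, 77 were analysed here, since the authors removed 3 of virgin females (amygdala 4487, hippocampus 4490 and cerebellum 4490, numbered by animal). The comparisons therefore had 8 virgin against 8 primiparous animals in the hypothalamus and neocortex, and 7 against 8 elsewhere.

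In the molecular clock, CLOCK and BMAL1 (encoded by Arntl) activate genes that carry an E-box, and the PER and CRY proteins, among the products of those genes, close the loop by inhibiting them. Output factors pass the rhythm on. DBP, TEF and HLF, the PAR bZIP proteins, activate genes at the D-box, a site that NFIL3 (E4BP4) occupies as a repressor. CIART (CHRONO) represses CLOCK and BMAL1, and BHLHE40 and BHLHE41 (DEC1 and DEC2) repress at E-boxes. Most of these transcripts cycle over the day in many tissues, and mice that lack all PAR bZIP proteins are prone to seizures.

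The members lie on 6 chromosomes (GRCm38, GENCODE M21). Dbp (Entrez 13170) is at chr7:45705088-45710203 on the plus strand, Tef (21685) at chr15:81802421-81826863 on the plus strand and Hlf (217082) at chr11:90336536-90390895 on the minus strand. Nfil3 (18030) is at chr13:52967209-52981073, minus strand, and Ciart (229599) at chr3:95878503-95882251, minus strand. Bhlhe40 (20893) is at chr6:108660629-108666925, plus strand, and Bhlhe41 (79362) on the same chromosome at chr6:145858243-145865558, minus strand. The library kit does not mark strand, and whether the counting used strand is not given in the sources used here. The reads of 539 exon bases of Dbp (18%) cannot be told from those of Sphk2, and 1280 exon bases of Bhlhe41 (19.0%) overlap the annotated transcript Gm43909, each on the opposite strand.

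Upstream sequences are shown because the members differ in how many E-boxes they carry there. RefSeq promoter windows (GRCm38.p6) were found for 6 of the 7 members, and the 250 bases before each start were searched on both strands for the E-box CACGTG and the D-box TTATGNAA. Ciart carried 3 E-boxes, first bases 116, 58 and 44 bases upstream of its start. Bhlhe41 carried 1, and each of the windows of Tef carried 1, while the windows of Dbp, Hlf and Nfil3 carried 0. Of all 32851 windows of this length, 6.02% held an E-box and 0.0609% held 3 or more. No member window held the D-box, which stood in 3.07% of all windows, so no 2 kinds of match overlapped. Absence of a match says only that these letters are not in this window. The sequences below run 5′ to 3′ on the strand of the gene, cover only bases outside annotated exons and have the E-box in capitals. They are Ciart chr3:95882252-95882478 (minus strand), Bhlhe41 chr6:145865559-145865670 (minus), the second window of Tef chr15:81811164-81811413 (plus) and, as a window with 0 matches, Hlf chr11:90390918-90391167 (minus).
Ciart: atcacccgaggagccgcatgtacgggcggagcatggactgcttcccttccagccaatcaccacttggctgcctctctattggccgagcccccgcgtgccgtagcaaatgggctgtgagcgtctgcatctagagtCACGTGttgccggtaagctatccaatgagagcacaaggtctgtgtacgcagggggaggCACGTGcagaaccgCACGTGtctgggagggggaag
Bhlhe41: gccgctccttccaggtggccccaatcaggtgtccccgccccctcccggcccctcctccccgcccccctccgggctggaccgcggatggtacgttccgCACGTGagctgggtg
Tef: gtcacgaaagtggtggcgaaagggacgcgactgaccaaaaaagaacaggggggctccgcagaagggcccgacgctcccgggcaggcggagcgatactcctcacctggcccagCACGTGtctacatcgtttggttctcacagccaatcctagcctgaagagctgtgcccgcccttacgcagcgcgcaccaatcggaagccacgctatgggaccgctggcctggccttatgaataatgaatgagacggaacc
Hlf: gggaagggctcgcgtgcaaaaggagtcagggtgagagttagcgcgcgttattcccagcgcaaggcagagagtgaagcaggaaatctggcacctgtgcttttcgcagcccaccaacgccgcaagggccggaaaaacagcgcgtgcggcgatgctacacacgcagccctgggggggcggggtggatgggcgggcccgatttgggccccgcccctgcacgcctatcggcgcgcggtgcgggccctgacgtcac

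Depth was 7959192 to 37871854 counted reads per library, with a median of 17623886. Of 20 region markers, 18 were highest in the labelled region, and both exceptions were amygdala markers (Rspo2 at 10.4 CPM against 20.9 in the hippocampus, and Meis2 at 117 against 166 in the neocortex). Some libraries stood apart. Hippocampus of primiparous 413 carried cerebellar markers summing to 413 CPM (group median 14.2), primiparous 427 had the highest pituitary markers of its group in every region (61.0 to 171 CPM), and hypothalamus of virgin 4490 had 180 CPM of pituitary markers and 154 CPM of thalamic markers (group medians 7.17 and 52.6). Choroid plexus markers summed to 3860 CPM in the hippocampus of primiparous 425 and 3460 in that of virgin 4487 (group medians 85.4 and 98.8), and to 3520 CPM in the cerebellum of primiparous 421 and 1260 in that of virgin 4491 (76.5 and 38). Values without these libraries are given beside the results they change, and leaving out these 4 (the highest of each group in choroid plexus markers, with 132 to 1010 CPM next to them), an alternative chosen after seeing the data, changed no member call in those regions or against the hypothalamus. Animal numbers also differed by state, since 6 of 8 virgin but 1 of 8 primiparous females carry 4-digit numbers, and what the number series stands for is not given.

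The members differed widely in level. Per kilobase of exon, Tef was the highest in every region (39.6 to 55.0 CPM per kb over region means), followed by Hlf (14.4 to 34.8) and Bhlhe40 (12.8 to 25.8), with Bhlhe40 above Hlf in the amygdala (18.6 and 16.7). Dbp stood at 7.34 to 10.6 CPM per kb and Nfil3 at 5.73 to 14.2, while Bhlhe41 (2.51 to 5.59) and Ciart (2.40 to 4.38) were lowest.

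**Figure D1:**
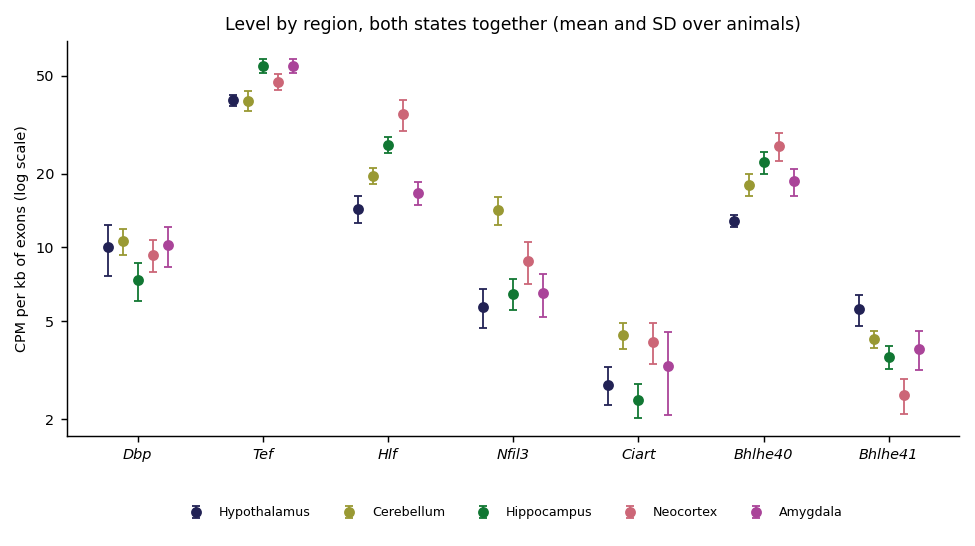
Mean level of each member in each region (CPM per kb of exons, log axis). Points are means over 15 or 16 libraries of both states and bars are SD. Hlf and Bhlhe40 were highest in the neocortex and lowest in the hypothalamus, Bhlhe41 ran the other way, and Dbp and Tef spanned less than the other members.

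The question of where each factor is most abundant was addressed by comparing all 10 pairs of regions in edgeR. Of 70 member tests, 56 passed an adjusted p of 0.05, beside 73.0% of the tests of all genes over the same pairs (58.7% to 81.1% by pair). The libraries of each region were sequenced as a pool, so region and pool cannot be told apart.

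Among the activators, Hlf had the steepest gradient, at 232 ± 32.6 CPM (SD, n = 16) in the neocortex, 175 ± 13.4 (n = 15) in the hippocampus, 131 ± 9.89 (n = 15) in the cerebellum, 111 ± 12 (n = 15) in the amygdala and 96.0 ± 12.1 (n = 16) in the hypothalamus. This was a 2.42-fold range, and of neighbours in that order the cerebellum and amygdala alone did not differ (adjusted p = 0.0843). Tef was 433 ± 29.2 CPM in the hippocampus and 432 ± 29.8 in the amygdala, then 372 ± 26.4 in the neocortex and 312 in both the cerebellum (± 28.7) and hypothalamus (± 16). The first pair (adjusted p = 0.811) and the last (0.859) did not differ, and the whole range was 1.39-fold. By mean CPM Dbp was the flattest after Tef. In the edgeR fits the order was the other way, with a widest log2 difference of -0.62 for Tef (hypothalamus over hippocampus) and -0.47 for Dbp (hippocampus over amygdala). Dbp had 31.8 ± 3.83 CPM in the cerebellum, 30.4 ± 5.56 in the amygdala, 30 ± 7.16 in the hypothalamus, 27.9 ± 4.10 in the neocortex and 22 ± 3.81 in the hippocampus. The hippocampus was lower than every other region (adjusted p between 3.1e-07 and 0.000427), though not lower than the neocortex after correction for gene length and GC content (-0.10, adjusted p = 0.252). Among the other 4 regions, amygdala over hypothalamus passed (adjusted p = 0.0414) and the other 5 pairs did not. That correction turned the sign of the called pair (hypothalamus over amygdala 0.08 in place of -0.17) and put the cerebellum above the amygdala (0.29, adjusted p = 0.000398) and the hypothalamus above the neocortex (0.25, adjusted p = 0.00161).

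Among the repressors, Nfil3 was highest in the cerebellum, at 28.8 ± 3.66 CPM against 17.9 ± 3.43 in the neocortex, 13.2 ± 2.63 in the amygdala, 13.1 ± 1.89 in the hippocampus and 11.6 ± 2.13 in the hypothalamus. By mean CPM that range was 2.48-fold, the widest of the 7 members, and the amygdala and hippocampus did not differ (adjusted p = 0.949). In the edgeR fits Hlf was the widest, with a log2 difference of -1.39 for hypothalamus over neocortex. That of Nfil3 was -1.31 for hypothalamus over cerebellum. The paralogs Bhlhe40 and Bhlhe41 had opposite extremes. Bhlhe40 fell from 121 ± 16 CPM in the neocortex through 104 ± 10.4 in the hippocampus, 87.6 ± 11.1 in the amygdala and 84.4 ± 8.60 in the cerebellum to 60.3 ± 3.37 in the hypothalamus, and every neighbour differed. Bhlhe41 was highest in the hypothalamus, at 37.6 ± 5.44 CPM, and lowest in the neocortex, at 16.8 ± 2.73, a 2.24-fold range. Between them lay the cerebellum (28.4 ± 2.31), the amygdala (25.9 ± 4.68) and the hippocampus (24 ± 2.53), and no pair of these 3 differed (adjusted p between 0.155 and 0.981). Ciart was 9.91 ± 1.21 CPM in the cerebellum, 9.34 ± 1.77 in the neocortex, 7.47 ± 2.78 in the amygdala, 6.24 ± 1.10 in the hypothalamus and 5.41 ± 0.853 in the hippocampus. The cerebellum and neocortex (adjusted p = 0.919) and the hypothalamus and hippocampus (0.632) did not differ.

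Next, the 2 states were compared region by region for differences that lasted beyond weaning. In the hypothalamus Dbp and Bhlhe41 were higher and Hlf was lower in primiparous females, and the other 4 members did not pass. These 3 of 7 members stood against 22.6% of all 13016 genes that passed in this comparison (10.8% higher and 11.8% lower). The changes were small, from 0.847-fold to 1.27-fold. In bulk tissue, fewer cells of a type and less RNA per cell cannot be told apart. Differences are log2 of primiparous over virgin, with standard errors and p-values from edgeR's quasi-likelihood test adjusted over all genes tested.

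Dbp, among the most strongly cycling transcripts of many tissues, ran from 23.8 to 30.5 CPM in the hypothalamus of virgin females (median 25.8) and from 26.3 to 52.1 CPM in primiparous females (median 31.5). The groups overlapped, with 5 of 8 primiparous values above every virgin value and 7 of 8 above the virgin mean. The means were 26.4 ± 2.43 and 33.7 ± 8.56 CPM (SD, n = 8 each), a log2 difference of 0.34 ± 0.11 (SE, adjusted p = 0.0298). Animal 413 gave the highest value, 52.1 CPM against 37.4 in the next primiparous animal. Without it the difference was 0.22 (adjusted p = 0.0702), and the call was also lost without any of primiparous 414 or 427 and virgin 4487, 4489 or 4491 (0.32 or 0.33, adjusted p between 0.0507 and 0.0604).

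Hlf, which encodes hepatic leukemia factor, ran from 93.2 to 129 CPM in virgin females (median 101) and from 71.5 to 95.2 CPM in primiparous females (median 89.8). The groups barely overlapped, since 6 of 8 virgin values lay above every primiparous value and all 8 primiparous values lay below the virgin mean. The means were 103 ± 11.6 and 88.8 ± 7.67 CPM, a log2 difference of -0.24 ± 0.0651 (adjusted p = 0.0122). This call held whichever single library was left out (-0.26 to -0.19, adjusted p at most 0.0311). The highest virgin value came from animal 4490, the library with thalamic and pituitary transcripts.

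Bhlhe41, which had its own highest level in this region, ran from 26.5 to 38.6 CPM in virgin females (median 34.8) and from 30.8 to 46.1 CPM in primiparous females (median 41.5). Here 6 of 8 primiparous values lay above every virgin value. The means were 34.3 ± 3.55 and 40.9 ± 5.11 CPM, a log2 difference of 0.23 ± 0.0796 (adjusted p = 0.0386). The call stood close to the threshold and was lost without any of 11 of the 16 libraries in turn (0.19 to 0.24, adjusted p between 0.051 and 0.0854).

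**Figure D2:**
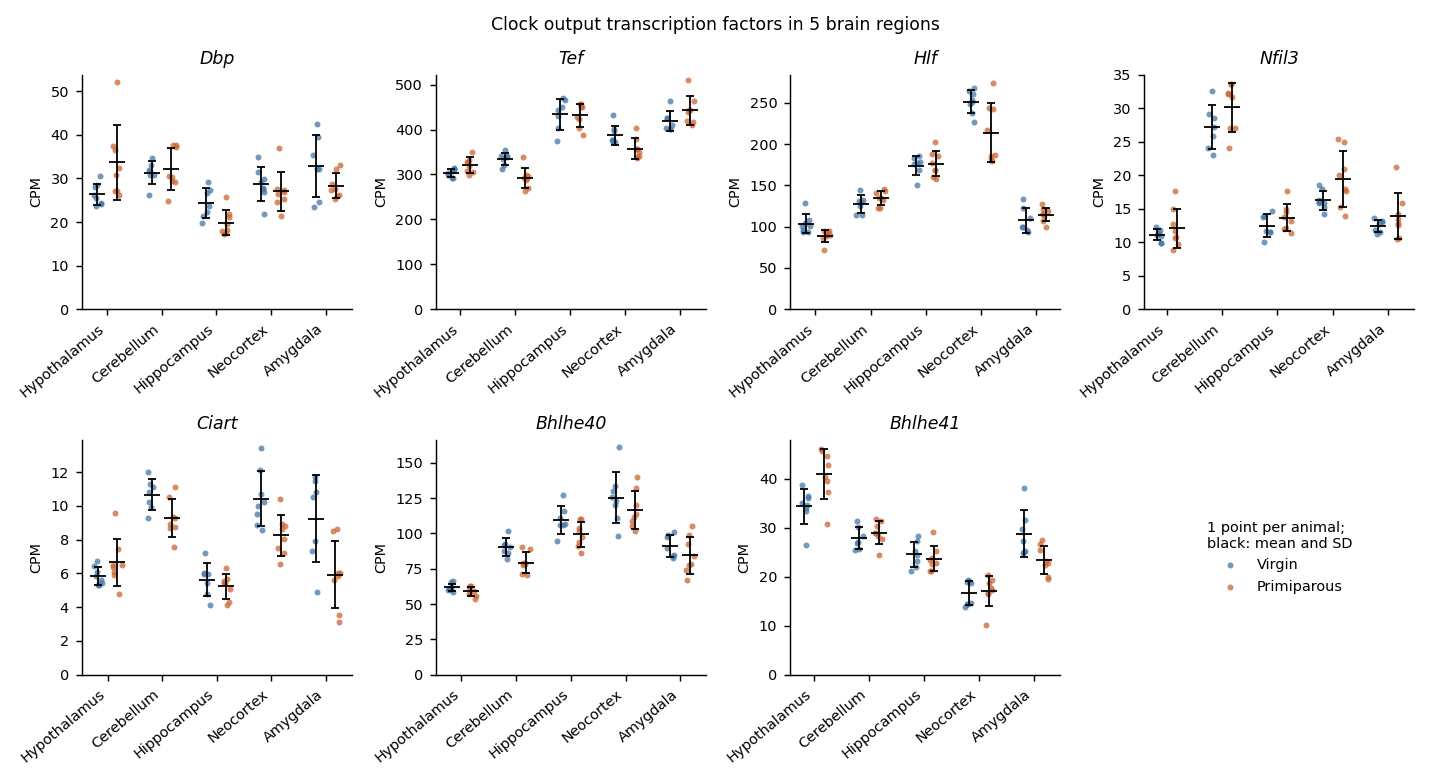
Level of each member (CPM) in every library by region and state, each point an animal and each line a group mean. In the hypothalamus 5 of 8 primiparous Dbp values and 6 of 8 primiparous Bhlhe41 values lay above every virgin value, and 5 of 8 primiparous Hlf values lay below every virgin value.

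The paralog Bhlhe40 did not follow Bhlhe41, with a mean of 61.8 ± 2.67 CPM in virgin and 58.9 ± 3.52 in primiparous females (log2 difference -0.09, adjusted p = 0.184). The remaining PAR bZIP gene, Tef, stood at 303 ± 9.07 and 321 ± 17.0 CPM (0.06, adjusted p = 0.282). Its antagonist Nfil3 had equal medians of 11.2 CPM (0.09, adjusted p = 0.597), and Ciart stood at 5.83 ± 0.533 and 6.65 ± 1.39 CPM (0.16, adjusted p = 0.4). For Dbp, Nfil3 and Ciart the primiparous animals were the more spread, with coefficients of variation of 25.4%, 24% and 21.0% against 9.21%, 7.61% and 9.15% in virgin animals, where the median gene had 13.2% and 8.85%. A single primiparous library carried much of this spread for Dbp (413, 52.1 CPM with 37.4 next) and for Ciart (421, 9.57 CPM with 7.45 next).

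Several properties of the libraries moved with these differences. In the hypothalamus the change between states ran with GC content over all genes. Dbp has 61.6% GC, and the 310 tested genes within 1 percentage point of it had a median log2 difference of 0.22, with 41.9% of them passing the test. Hlf has 45.1% GC, and its 1208 neighbours had a median of -0.10, with 20.6% passing. The neighbours of Bhlhe41 (47.5% GC, 1339 genes) had a median of -0.05, opposite in sign to Bhlhe41 itself. After the dependence of every library on length and GC content was taken out, the difference was 0.15 for Dbp (adjusted p = 0.459), -0.12 for Hlf (0.202) and 0.29 for Bhlhe41 (0.0396), so Bhlhe41 alone passed.

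**Figure D3:**
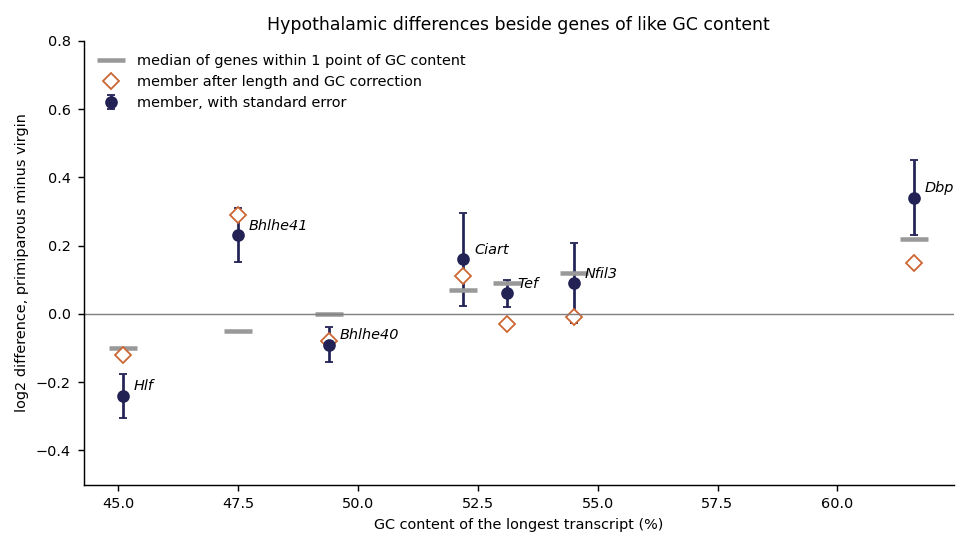
Log2 difference between primiparous and virgin hypothalamus for each member against its GC content (percent). Grey dashes are the medians of genes of like GC content, and open diamonds are the member values after the length and GC correction. Dbp at 61.6% GC lies above and Hlf at 45.1% GC below 0, as do the medians of genes of like GC content (0.22 and -0.10), and Bhlhe41 at 47.5% lies above its neighbours (median -0.05).

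With the number series of the animals as a covariate, the differences kept their signs (0.31, -0.18 and 0.22 for Dbp, Hlf and Bhlhe41), none passed (adjusted p = 0.316, 0.314 and 0.306), and 3 of all genes were called. State and number series thus cannot be told apart in most animals. In simulated data the fit with this covariate recovered 4% of changes of 0.25 log2, against 30% without it. Without the hypothalamus libraries of animals 427 and 4490, an alternative chosen after seeing the data, 0 of the 7 members passed (Hlf -0.18, adjusted p = 0.0502, Dbp 0.36, adjusted p = 0.053, and Bhlhe41 0.22, adjusted p = 0.0989). In that fit 1770 genes passed in place of 2939. Markers of the suprachiasmatic nucleus, the seat of the central clock, summed to 207 to 479 CPM in virgin and 327 to 564 CPM in primiparous hypothalamus (5 markers, Avp among them, which is also expressed by other hypothalamic nuclei). Of these markers 4 were tested, and 0 passed in edgeR, at an unadjusted p under 0.05 or in DESeq2. Their part in the member results was not tested.

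In the cerebellum 0 of 7 members passed in edgeR, where 0.707% of all genes did, and limma-voom also called 0. At an unadjusted p under 0.05 there were 2 members, Tef and Bhlhe40, beside 19.5% of all genes. Tef ran from 313 to 354 CPM in virgin females (median 339) and from 263 to 338 CPM in primiparous females (median 292), and 7 of 8 primiparous values lay below every virgin value. Its log2 difference was -0.18 ± 0.0499 (adjusted p = 0.0666 in edgeR and 0.0164 in DESeq2), and without primiparous 4493 it was -0.21 (adjusted p = 0.0157). Genes of like GC content had a median of -0.01 there. Glial markers moved in the same comparison, with oligodendrocyte markers summing to 4190 to 5570 CPM in virgin and 5090 to 7080 CPM in primiparous cerebellum. Of 5 markers each, 4 of oligodendrocytes, 2 of astrocytes and 3 of microglia had an unadjusted p under 0.05, and 1 of each passed as higher in primiparous females (Mbp, Aqp4 and C1qa). Blood markers summed to 24.3 to 35.9 CPM in virgin and 26.1 to 96.9 CPM in primiparous cerebellum, and pituitary markers to 0.588 to 4.14 and 1.08 to 121 CPM (primiparous 427 the highest). Both tested markers of each had an unadjusted p under 0.05 and passed in DESeq2, and 0 passed in edgeR. So did 3 of 4 cerebellar, 2 of 6 hypothalamic and 1 of 5 endothelial markers have an unadjusted p under 0.05, with 0 passing in edgeR. Cerebellar markers summed to 4570 to 5080 CPM in virgin and 4640 to 5230 CPM in primiparous cerebellum. The part of these markers in the values of Tef and Bhlhe40 was not tested. Bhlhe40 stood at 90.2 ± 6.30 CPM in virgin and 79.4 ± 7.16 in primiparous cerebellum (-0.17, unadjusted p = 0.0105, adjusted p = 0.143).

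In the hippocampus, neocortex and amygdala 0 of 7 members passed in edgeR, limma-voom or DESeq2 (which gave Ciart and Bhlhe41 no adjusted p in the amygdala), and 0.0% of all genes passed in edgeR in each. At an unadjusted p under 0.05 there were 2 members in the hippocampus, 3 in the neocortex and 2 in the amygdala, beside 7.38%, 9.8% and 11.9% of all genes. Dbp in the hippocampus had a direction opposite to that in the hypothalamus. It ran from 19.9 to 29.2 CPM in virgin females (median 23.6) and from 17.3 to 25.8 CPM in primiparous females (median 18.9), with 5 of 8 primiparous values below every virgin value (log2 difference -0.29, unadjusted p = 0.00486, adjusted p = 0.564). The lowest value, 17.3 CPM, came from primiparous 425, and without the hippocampus libraries highest in choroid plexus markers the difference was -0.28 (adjusted p = 0.343). Bhlhe40 stood at 110 ± 9.87 CPM in virgin and 99.3 ± 8.71 CPM in primiparous hippocampus (-0.14, unadjusted p = 0.0255). Markers moved here too, with 4 of 4 cerebellar, both tested pituitary, 3 of 5 astrocyte, 2 of 6 hypothalamic and 1 of 2 blood markers at an unadjusted p under 0.05. Of these 0 passed in edgeR. Cerebellar markers summed to 7.2 to 14.0 CPM in virgin and 7.6 to 413 CPM in primiparous hippocampus, and pituitary markers to 0.37 to 1.15 and 0.286 to 61.0 CPM. Their part in the member differences was not tested.

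In the neocortex Ciart stood at 10.4 ± 1.62 CPM in virgin and 8.26 ± 1.21 CPM in primiparous females (log2 difference -0.30, unadjusted p = 0.00996). Nfil3 stood at 16.2 ± 1.40 and 19.5 ± 4.16 CPM (0.29, unadjusted p = 0.0146), and Hlf at 251 ± 13.6 and 214 ± 36.1 CPM (-0.20, unadjusted p = 0.0411). The adjusted p was 0.479 for the first 2 of these and 0.498 for Hlf.

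The largest member difference by size was that of Ciart in the amygdala. Its value was 10.5 CPM in the median virgin female (4.89 to 11.7) and 5.95 CPM in the median primiparous female (3.14 to 8.62), on 46 to 202 reads per library. All 8 primiparous values lay below the virgin mean and the groups overlapped. The log2 difference was -0.63 ± 0.212 (unadjusted p = 0.00649, adjusted p = 0.257), and it passed in a single fit of all 10 groups (adjusted p = 0.0244), which lets the regions share their spread. Bhlhe41 ran from 24.8 to 38 CPM in virgin and from 19.4 to 27.4 CPM in primiparous amygdala, with all 8 primiparous values below the virgin mean (-0.28, unadjusted p = 0.00858, adjusted p = 0.262). Markers of other cells moved in this comparison too, as both tested blood markers, both tested pituitary markers and 2 of 5 astrocyte markers had an unadjusted p under 0.05, and 0 of them passed in edgeR. Blood markers summed to 7.35 to 31.7 CPM in virgin and 13.1 to 44.5 CPM in primiparous amygdala, pituitary markers to 0.0 to 12.4 and 0.0 to 171 CPM, and astrocyte markers to 1330 to 2440 and 1620 to 2370 CPM. Virgin 409, which gave the lowest virgin Ciart value, had the highest oligodendrocyte (3950 CPM, group median 2160) and astrocyte markers (2440, median 1680) of its group, and without it the Ciart difference was -0.74 (adjusted p = 0.134). The part of these markers in the member differences was not tested.

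**Figure D4:**
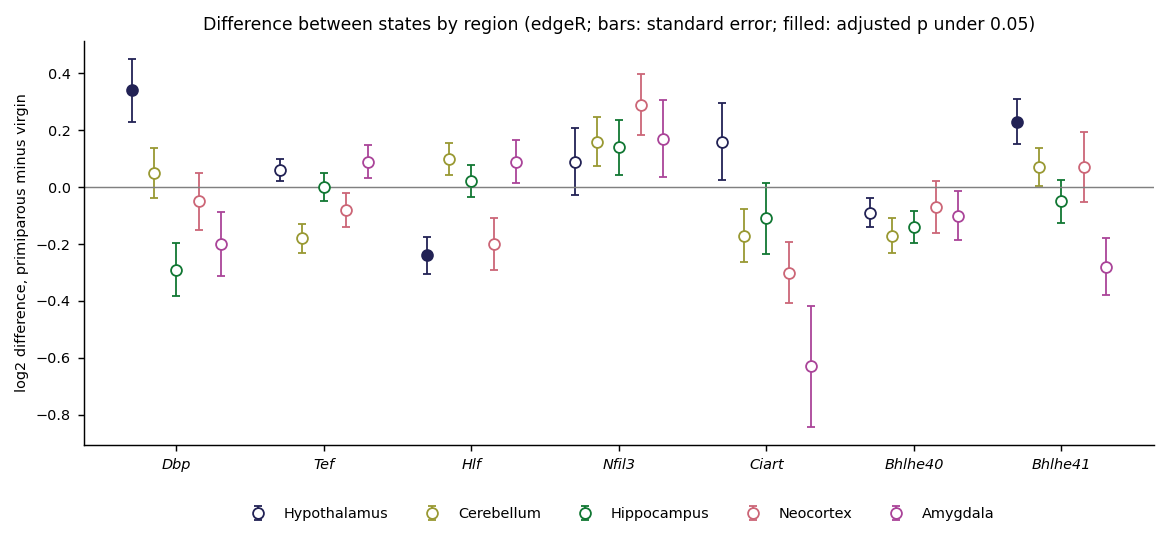
Log2 difference of primiparous over virgin females for each member in each region (points are edgeR estimates, bars are standard errors, and filled points passed an adjusted p of 0.05). The 3 members that passed were Dbp, Bhlhe41 and Hlf in the hypothalamus, and Ciart in the amygdala lay farthest from 0 at -0.63.

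Whether the hypothalamus differed from another region was tested as an interaction of region and state. These 4 tests share the hypothalamus libraries. Against the cerebellum 2 of 7 members passed, beside 15.5% of all genes. The difference of Hlf was lower in the hypothalamus (-0.35 ± 0.0875, adjusted p = 0.00868) and that of Tef higher (0.23 ± 0.06, adjusted p = 0.0092). Both stayed past the threshold with the animal as a replicate block and without the libraries of 427 and 4490, and neither did with the block and the length and GC correction together (Hlf -0.19, adjusted p = 0.0747, and Tef 0.10, adjusted p = 0.406).

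Against the hippocampus 2 members passed, beside 17.2% of all genes. Dbp had the larger interaction, 0.62 ± 0.154 (adjusted p = 0.00754), and kept it with the animal as a replicate block (0.61, adjusted p = 0.00888). It was also as large without 427, 4490 and the hippocampus library of 413 (0.72, adjusted p = 0.00773). With the block and the length and GC correction together it was 0.39 (adjusted p = 0.12). Hlf differed by -0.27 (adjusted p = 0.0302), and lost the call with the block (-0.22, adjusted p = 0.112) and without those libraries (-0.23, adjusted p = 0.0783).

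Against the amygdala 4 members passed, beside 18.2% of all genes. Bhlhe41 was higher by 0.52 ± 0.127 (adjusted p = 0.00491) and held in every alternative run, including the block with the length and GC correction (0.60, adjusted p = 0.0219). Ciart differed by 0.80 ± 0.256 (adjusted p = 0.0264), with the block by 0.78 (adjusted p = 0.0546) and without the libraries named above by 0.84 (adjusted p = 0.0454). Dbp differed by 0.54 ± 0.165 (adjusted p = 0.0201), with the block by 0.48 (adjusted p = 0.0611) and without those libraries by 0.55 (adjusted p = 0.0514). Hlf differed by -0.33 ± 0.102 (adjusted p = 0.0223), with the block by -0.33 (adjusted p = 0.0453) and without those libraries by -0.28 (adjusted p = 0.0858). With the block and the correction together, Ciart (0.70, adjusted p = 0.246), Dbp (0.14, 0.786) and Hlf (-0.17, 0.46) did not pass.

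Against the neocortex 0 members and 0.0% of all genes passed in edgeR, and DESeq2 also called 0 members. At an unadjusted p under 0.05 there were 3 members, Ciart (0.47), Dbp (0.39) and Tef (0.14), beside 2.58% of all genes. Averaged over the 5 regions of an animal (14 animals with all of them, 6 virgin and 8 primiparous, limma-trend), 0 of 7 members and 0.0% of all genes passed. There the members with an unadjusted p under 0.05 were Bhlhe40 (-0.12, unadjusted p = 0.00207, adjusted p = 0.359), Ciart (-0.14, 0.00506, 0.378) and Nfil3 (0.14, 0.00661, 0.389), beside 9.12% of all genes.

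All regions came from the same animals, which allows an animal's level in a region to be set beside its level in another. Deviations from the group mean correlated between regions with a mean r of 0.31 for Dbp and 0.32 for Tef over the 10 pairs of regions, above 98.7% and 98.9% of tested genes, where the median gene had 0.01. These are descriptions over 14 to 16 animals per pair, whose libraries share an animal and a dissection. For Dbp the value stayed at 0.31 after the same length and GC correction, and for Tef it was then 0.05. The other 5 members had at most 0.10 before the correction and at most 0.13 (Hlf) after it. Dbp was lowest of its state in 4 of 5 regions in both virgin 4489 and primiparous 425. Primiparous 425 had 21.5 CPM in the neocortex and 26.3 in the hypothalamus, and its hippocampus and cerebellum had 17.3 and 24.9. Primiparous 413 had the highest Dbp of its group in the hypothalamus (52.1 CPM) and hippocampus (25.8). In the core clock the highest values were those of Per1 and Per2 (both 0.29), Clock (0.26) and Rora (0.21), and after the correction they stood at 0.36, 0.26, 0.45 and 0.03.

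**Figure D5:**
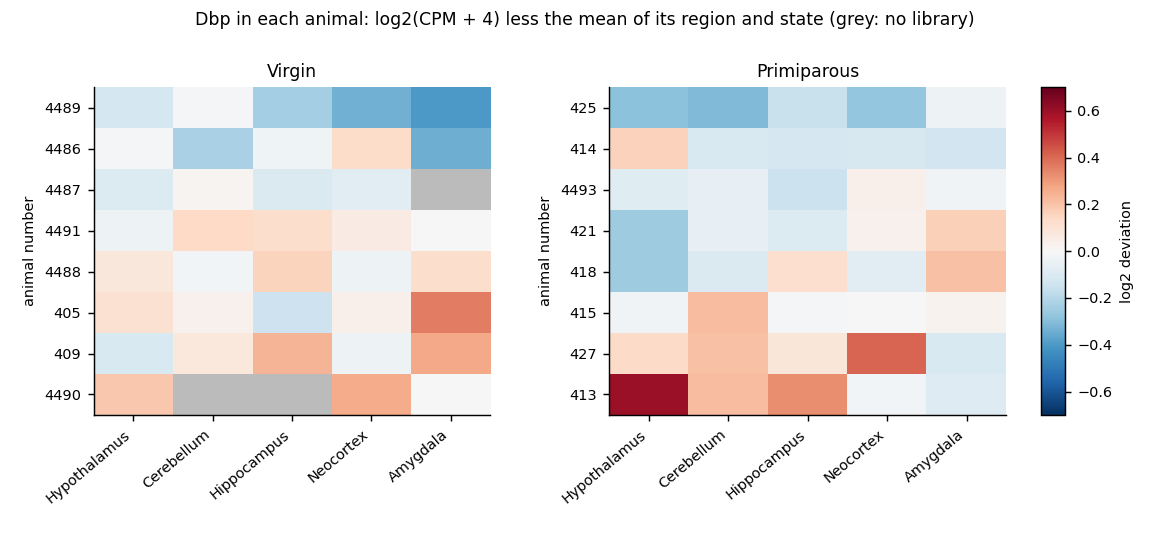
Dbp of each animal in the 5 regions, with a panel for each state (colour is log2(CPM + 4) less the mean of its region and state, grey is no library). Virgin 4489 and primiparous 425 were lowest of their state in 4 of 5 regions, and primiparous 413 stood highest in the hypothalamus at 52.1 CPM.

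Correlations among the members were weak over all libraries and varied between regions. Over the 77 libraries, deviations from the mean of each region and state gave r between -0.27 and 0.18 for all member pairs. Within a region, over 15 or 16 libraries, r ran from -0.77 (Hlf with Nfil3 in the neocortex) to 0.67 (Hlf with Bhlhe40 in the cerebellum). Dbp and Bhlhe41 had -0.68 in the neocortex, where primiparous 427 had the highest Dbp and the lowest Bhlhe41 of its group, and 0.48 in the hypothalamus. After the length and GC correction the 3 PAR bZIP genes correlated positively, Dbp with Hlf at 0.33, Tef with Hlf at 0.27 and Dbp with Tef at 0.26, against 0.07, 0.04 and -0.05 before it. Tef and Bhlhe41 stood at -0.33 and Nfil3 and Bhlhe40 at 0.32 after the correction. These points share animals, depth and base composition, and the values are descriptions only.

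With the core clock genes, Hlf had its highest r with Nr1d2, which encodes REV-ERB beta (0.66, and 0.30 after the correction). Tef had 0.48 with Per3 (0.28 after it). Dbp ran against Clock, with -0.44 over all libraries, a negative value in each of the 5 regions (-0.66 to -0.38) and -0.32 after the correction. Bhlhe40 had 0.37 with Per2 and 0.36 with Arntl, and 0.40 and 0.34 after the correction.

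Of all tested genes, those most like each member over the 77 libraries were taken as the 3 with the highest r. For Dbp they were AW047730 (0.63), Nbdy (0.55) and Cspg5 (0.55), those of Tef included Prdm15 (0.49) and Spns2 (0.49), and those of Hlf included Mpp5 (0.71) and Pum2 (0.70). For Nfil3 they were Jmjd6, Prkcsh and Zswim9 (all 0.56), and for Ciart Mei1 (0.55), Dpp3 (0.52) and Cln6 (0.51). Bhlhe40 was most like Cx3cl1 (0.64), Nuak1 (0.61) and the chloride transporter gene Slc12a5 (0.58), and Bhlhe41 most like Dip2a (0.59), Foxn3 (0.58) and Rims3 (0.58). After the length and GC correction, which takes out both together, Mpp5 and Pum2 (39.5% and 42.2% GC) stood at 0.38 and 0.41. Of the first 3, the correction kept 2 for Bhlhe40 (Cx3cl1 at 0.65 and Nuak1 at 0.64), 1 for Ciart (Mei1 at 0.55), 1 for Bhlhe41 (Foxn3 at 0.53) and 0 for the other 4 members.

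The rest of the clock and the genes downstream were taken as lists. All 13 core clock genes were tested, and in the hypothalamus 1 was higher and 2 were lower in primiparous females (list median -0.0117, all genes 0.0145). This count is close to the 22.6% of all genes that passed there. Nr1d1, which encodes REV-ERB alpha, stood at 144 ± 11 CPM in virgin and 173 ± 25.2 in primiparous females (0.24, adjusted p = 0.019). Its paralog Nr1d2 stood at 131 ± 9.51 and 108 ± 13 CPM (-0.31, adjusted p = 0.004), and Clock at 96.9 ± 6.43 and 83.0 ± 11.1 CPM (-0.25, adjusted p = 0.0144). Without the libraries of 427 and 4490, Nr1d2 alone passed (-0.29, adjusted p = 0.0176), against 0.0633 for Nr1d1 and 0.0584 for Clock. Under the length and GC correction none of the 3 did (0.10, -0.10 and -0.05, adjusted p = 0.253, 0.151 and 0.671). In the cerebellum Nr1d1 was lower in primiparous females (224 ± 13.6 and 189 ± 13.2 CPM, -0.23, adjusted p = 0.0483) and 0 other core genes passed, with 6 of 13 at an unadjusted p under 0.05 beside 19.5% of all genes. That call was lost without any of 11 of the 15 libraries in turn (adjusted p up to 0.139). It was also lost without the cerebellum libraries highest in choroid plexus markers (-0.26, adjusted p = 0.0522). Some glial, blood, pituitary, cerebellar, hypothalamic and endothelial markers, described above, moved in the same comparison.

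Of 4 genes known from other tissues to depend on PAR bZIP factors, 3 were tested, and 2 were higher in primiparous hypothalamus, where 10.8% of all genes were. Por, which encodes the electron donor of microsomal cytochromes P450, stood at 103 ± 9.38 CPM in virgin and 128 ± 12.9 in primiparous females (0.28, adjusted p = 0.00441). In the other regions Por did not pass, at 0.29 in the neocortex (unadjusted p = 0.00289, adjusted p = 0.479) and -0.20 in the amygdala (unadjusted p = 0.013, adjusted p = 0.286). Alas1, the rate-limiting enzyme of haem synthesis, stood at 41.4 ± 1.22 and 48.0 ± 3.43 CPM (0.19, adjusted p = 0.0175). Both held without 427 and 4490, and neither passed with the length and GC correction (0.13, adjusted p = 0.123, and 0.10, adjusted p = 0.303). Pdxk, pyridoxal kinase, did not pass (0.08, adjusted p = 0.286), and Nr1i3 lay below the filter, at 0.915 ± 0.203 and 1.24 ± 0.469 CPM.

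Genes of acute stimulation and stress, which also act on several clock genes, were examined beside them. Of 11 immediate early genes 0 passed in edgeR in any region, where 22.6% of all genes passed in the hypothalamus, 0.707% in the cerebellum and 0.0% elsewhere. At an unadjusted p under 0.05 there were 0 to 3 per region, beside 7.38% to 19.5% of all genes outside the hypothalamus. DESeq2 called 1 each in the hypothalamus and amygdala. In the interactions 1 of 11 passed against the hippocampus (Arc, 0.55, adjusted p = 0.027, with 3 in DESeq2), beside 17.2% of all genes. Against the amygdala 1 passed (Egr4, 0.74, adjusted p = 0.0178), beside 18.2%, and against the cerebellum 0 passed, beside 15.5%. Dbp and Hlf passed against the hippocampus and amygdala, and Hlf and Tef against the cerebellum. Of 8 glucocorticoid-responsive genes 1 passed in the hypothalamus in edgeR, beside 22.6% of all genes, and 2 in DESeq2. The edgeR call was Errfi1, lower in primiparous females (-0.24, adjusted p = 0.0208, and 0.0512 without virgin 4491). In the other regions 0 passed in edgeR and 1 in the hippocampus in DESeq2. At an unadjusted p under 0.05 these regions had 0 to 3, beside 7.38% to 19.5% of all genes. Their part in the member differences was not tested.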

How the data were processed

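Polyadenylated RNA was made into NEBNext Ultra libraries by the authors, who aligned 100-base single-end reads with HISAT2 to mm10 and counted reads mapping a single time with featureCounts and its inbuilt annotation. Their processing notes also name CASAVA, edgeR and limma. The deposited table holds raw whole-number counts per gene. A deposited log2 table, described as log2(CPM + 4), lay a median of 3.942 from that form and within 5e-05 of log2 of counts over size factors plus 4, and served only as an alternative. Columns not mapped to a sample numbered 0, and the ERCC spike-ins were not used here.

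Members and gene lists were chosen with earlier results of these data known. Named were the 7 members, for each the 3 most correlated genes, called core clock genes (up to 4) and called listed genes, and 2 of the correlated genes are not reported here. Symbols follow RefSeq by Entrez identifier. Positions come from GENCODE M21 and promoters from RefSeq. Levels are CPM of the counted total. Tests were edgeR quasi-likelihood F-tests (TMM factors 0.923 to 1.09, robust) within each region and for interactions, and limma-trend on animal means of log2(CPM + 4), with Benjamini-Hochberg adjustment over 13016 genes and a threshold of 0.05. The fits were tested on simulated data, with 100 genes changed by 0.25 and 100 by 0.5 log2. For the hypothalamus edgeR recovered 30% and 82% of these. With the number series as a covariate it recovered 4% and 68%. For the interaction against the amygdala it recovered 1% and 32%, so changes near 0.25 were mostly missed. Replicates were separate animals. Libraries of different regions with the same number came from the same animal, so a second fit of each interaction held the animal as a replicate block. Their deviations had median correlations of -0.0193 to 0.104 over the pairs of regions. Length and GC content were available for 12632 tested genes (97.05%). Alternatives were limma-voom, DESeq2, median-of-ratios factors, no filter, a fit of all 10 groups, the animal number series, the length and GC correction, the deposited log2 values and leaving out libraries. Software was R 4.3.3, edgeR 4.0.16, limma 3.58.1, DESeq2 1.42.0 and Python 3.11.15 (numpy 2.4.6, pandas 2.3.3, matplotlib 3.10.9).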

Additional observations from a re-analysis of the deposited data

Results flagged for a closer look

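Of the 70 groups of a member, region and state, 7 held a library far from the rest of its group by Dixon's test, where chance alone flags about 1 in 20 groups. In the hypothalamus, Dbp of primiparous 413 was 52.1 CPM with 37.4 next to it, Hlf of virgin 4490 was 129 CPM with 108 next, Hlf of primiparous 421 was 71.5 CPM with 86.4 next, and Bhlhe41 of virgin 4491 was 26.5 CPM with 33.3 next. In the neocortex, primiparous 427 had the highest Dbp, 36.9 CPM with 27.6 next, and the lowest Bhlhe41, 10.2 CPM with 16.4 next. In the amygdala, Tef of virgin 4490 was 464 CPM with 425 next. Animals 427 and 4490 are those with high pituitary markers, and the part of those transcripts in these values was not tested.

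The effect of state differed between the hypothalamus and another region for 5 members by the edgeR interaction test, in 8 member comparisons. Against the cerebellum these were Hlf (-0.35, adjusted p = 0.00868) and Tef (0.23, 0.0092), and against the hippocampus Dbp (0.62, 0.00754) and Hlf (-0.27, 0.0302). Against the amygdala they were Ciart (0.80, 0.0264), Dbp (0.54, 0.0201), Bhlhe41 (0.52, 0.00491) and Hlf (-0.33, 0.0223). All 8 share the hypothalamus libraries. With the animal as a replicate block 3 of them did not pass, Hlf against the hippocampus (adjusted p = 0.112) and Ciart (0.0546) and Dbp (0.0611) against the amygdala.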

How the results depend on the processing

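The count of members called in the hypothalamus, 3, was 0 with the animal number series as a covariate, 1 with the length and GC correction and 0 without the libraries of animals 427 and 4490, an alternative chosen after seeing the data. It was 1 to 3 with each library left out in turn and 2 or 3 under the other settings. In the cerebellum it was 1 under DESeq2 in place of 0, and 0 or 1 with libraries left out. In the amygdala it was 1 in a fit of all 10 groups. With a library or animal left out it stayed at 0 in the hippocampus, neocortex, amygdala and the mean over regions. The interaction counts with the animal as a replicate block were 1 against the hippocampus (2 without it) and 2 against the amygdala (4 without it), and with the block and the length and GC correction they were 0 against the cerebellum, 0 against the hippocampus and 1 against the amygdala. The block changed no other member call between states. Without animals 427 and 4490 and hippocampus 413 they were 1 against the hippocampus and 2 against the amygdala. The 56 regional calls became 56 to 61 under the alternatives, 57 with the block.

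Genes called in the hypothalamus went from 2939 to 2571 under limma-voom, 3327 under DESeq2, 379 with the length and GC correction, 3 with the number series and 2014 to 4119 with a library left out. In the cerebellum 92 became 505 under DESeq2, 419 with the correction, 0 with the number series, 45 without the libraries highest in choroid plexus markers and 6 to 903 with a library left out. In the amygdala 0 became 95 under DESeq2, 142 in a fit of all groups and 14 with the number series, in the hippocampus 12 and 6 and in the neocortex 4 and 6 under DESeq2 and the fit of all groups, and in the mean over regions 45 with the block. With a library left out the count was 0 to 31 in the amygdala, 0 to 1 in the hippocampus and 0 in the neocortex. It was 0 to 11 in the mean over regions with an animal left out.

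Signs that turned among differences between states belonged to values near 0. With the length and GC correction Tef and Nfil3 in the hypothalamus were -0.03 and -0.01, Pdxk -0.02, Tef and Hlf in the hippocampus 0.00 and -0.01, and Tef against the hippocampus -0.03 with the block too. With the number series Dbp in the cerebellum was -0.01, Tef and Hlf in the hippocampus 0.00 and -0.05, and Tef and Bhlhe41 in the mean over regions 0.00 and -0.01. Bhlhe41 was 0.00 there without TMM factors, and Tef in the hippocampus 0.00 in the deposited log2 values. With a library or animal left out, Tef in the hippocampus ran from -0.03 to 0.02 and Hlf there from -0.01 to 0.04, while in the mean over regions Dbp ran from -0.06 to 0.01 and Bhlhe41 from -0.02 to 0.03. Between regions the correction turned a called difference, Dbp of hypothalamus over amygdala (0.08, from -0.17), and also Dbp of hypothalamus over neocortex (0.25) and cerebellum over amygdala (0.29), Ciart of cerebellum over neocortex (0.18), Bhlhe41 of cerebellum over amygdala (0.10) and Nfil3 of hippocampus over amygdala (0.10). Without a filter the last 2 were 0.04 and 0.05, Ciart of cerebellum over neocortex was 0.00 with the block, and Tef of hypothalamus over cerebellum was 0.01 with median-of-ratios factors. The cause of these changes was not tested. Of 1148 member values between states under all alternatives, 1077 kept both sign and side of the threshold. Most belonged to differences that had not passed in the main fit, for which keeping the side means staying uncalled. Of the hypothalamus calls, with each library left out in turn, Hlf held in 16 of 16 fits, Dbp in 10 and Bhlhe41 in 5.

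Of genes most like a member, those within a single region shared at most 1 of 3 with those over all regions. At 7959192 to 37871854 reads per library, Ciart rests on as few as 46 reads in the amygdala.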
